A study of Mus musculus with 14 samples.

Results

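The genes described here, 8 members of purinergic signalling, were followed across the genotypes of a study of activated mouse B cells. They are the ATP-gated channels P2rx3, P2rx4 and P2rx7, the receptor P2ry10, the ectoenzymes Entpd1, Nt5e and Cd38, and the adenosine receptor Adora2a. They were chosen by gene symbol from the deposited expression table, and all 8 of 8 symbols were found among 22232 distinct genes. The choice was made with their differences between genotypes already known, above all the opposite shifts of P2rx3 in the mutants. Their levels and differences are therefore given as a description, and no p-value is attached to any of them.

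Cells release ATP when they are activated, stressed or damaged, and neighbouring cells sense it through P2X channels, which open to cations, and P2Y receptors, which couple to G proteins. On the cell surface CD39, the product of Entpd1, converts ATP and ADP to AMP, and CD73, the product of Nt5e, converts AMP to adenosine. Adenosine acts through its own receptors, of which the product of Adora2a raises cyclic AMP and restrains lymphocytes. CD38 consumes extracellular NAD. P2X3 is best known from sensory neurons, while P2X4 and P2X7 are known from immune cells.

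Per the labels, the cells were B cells of mouse spleen, purified by removing other cells and activated in culture for 96 h. All groups received the bacterial product LPS (5 µg/ml) together with the cytokine IL-4 (10 ng/ml). The groups were wild type mice (WT, n = 4 libraries), mice labelled PU.1[155-/155-], in which miR-155 can no longer bind the PU.1 transcript because its target site was altered (PU.1_KI, n = 5), and mice labelled miR-155[-/-], which lack the microRNA miR-155 (miR-155_KO, n = 5). These n hold for every mean and SD below. Strain, age and sex, and whether a library held 1 mouse or several, are not stated in the labels. The design text calls the libraries biological replicates. Polyadenylated RNA was sequenced, and levels are in RPKM (reads scaled by gene length and by library depth). Small differences in RPKM between libraries also depend on the scaling chosen, and results with other scalings are given below.

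Depth lay between 31.5 and 52.4 M reads a library. The PU.1 gene, listed under its older symbol Sfpi1, stood at 9.73 to 13.2 RPKM in WT, 21.1 to 26.0 in PU.1_KI and 15.5 to 18.3 in miR-155_KO. Of 10 B cell markers 9 passed the expression filter of at least 1 RPKM in at least 4 libraries, and their list summed to 4891 to 5566 RPKM in WT, 5364 to 6200 in PU.1_KI and 5052 to 5475 in miR-155_KO. Of 12 T cell markers only Lck passed the filter, with Cd3e at or below 0.057 RPKM in every library, and of 9 NK cell, 8 neutrophil and 8 platelet and erythroid markers none passed. Of 11 measured macrophage markers Cd68 and Mpeg1 passed, C1qa and Vcam1 were at 0 in all libraries, and the list summed to 11.8 to 13.8 RPKM in WT, 17.4 to 21.5 in PU.1_KI and 9.41 to 10.4 in miR-155_KO. In bulk RNA a lower share of cells expressing a gene and less RNA per cell cannot be told apart.

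The microRNA missing from the miR-155_KO cells is shown first, because its seed, bases 2 to 8 in capitals, sets which 3′ UTRs it can pair with by simple complementarity. The sequence is from RefSeq, on chr16:84714143-84714165 of the plus strand of GRCm38.p6.
miR-155-5p: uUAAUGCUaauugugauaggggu
Matches to this seed (AGCATTA for bases 2 to 8, or the shifted match GCATTAA, which together make the 8mer AGCATTAA; annotated 3′ UTRs of GENCODE M21, sense strand) were found in 0 of the 8 purinergic genes. Over all genes tested for expression with an annotated 3′ UTR, 14.5% held at least 1 such match and 3.53% the 8mer, which the 3′ UTR of Spi1, the current symbol of Sfpi1, also holds. The longest annotated 3′ UTRs of the purinergic genes ran from 430 bases in P2rx3 to 2985 in P2rx7, against a median of 1140 bases over those genes. The absence of these letters from the annotated 3′ UTRs says nothing about other kinds of pairing or other transcript ends.

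P2rx3 (ENSMUSG00000027071) encodes the P2X3 subunit, a fast ATP-gated cation channel of sensory neurons. It lies on chr2:84838740-84877619 on the minus strand of NCBIM37. In WT it was measured at 6.18, 4.41, 5.43 and 6.13 RPKM. The PU.1_KI libraries held 2.51, 2.03, 1.91, 2.41 and 1.59 RPKM. The miR-155_KO libraries held 11.4, 9.55, 9.70, 9.43 and 15.1 RPKM, of which replicate 5 was the highest of all 14 libraries. Every PU.1_KI library lay below every WT library, and every miR-155_KO library above every WT library, so the mutants stood on opposite sides of WT with no overlap.

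The mean level of P2rx3 was 5.54 ± 0.82 RPKM in WT (SD, as for every ± after a level), 2.09 ± 0.38 in PU.1_KI and 11.03 ± 2.41 in miR-155_KO. WT exceeded PU.1_KI by 2.65-fold, miR-155_KO exceeded WT by 1.99-fold, and miR-155_KO exceeded PU.1_KI by 5.27-fold. On the scale of log2(RPKM + 0.5), which understates changes of low genes, the differences from WT were -1.22 ± 0.14 in PU.1_KI and 0.92 ± 0.16 in miR-155_KO (± SE, as for every difference). Both differences use the same WT libraries. Among the 9607 genes that passed the filter, P2rx3 had the fourth lowest log2 difference of PU.1_KI from WT and ranked 7 from the top for miR-155_KO over PU.1_KI. The order of PU.1_KI below WT below miR-155_KO with no overlap at either step was found for 35 of these genes, or 0.36%, P2rx3 among them.

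**Figure D1:**
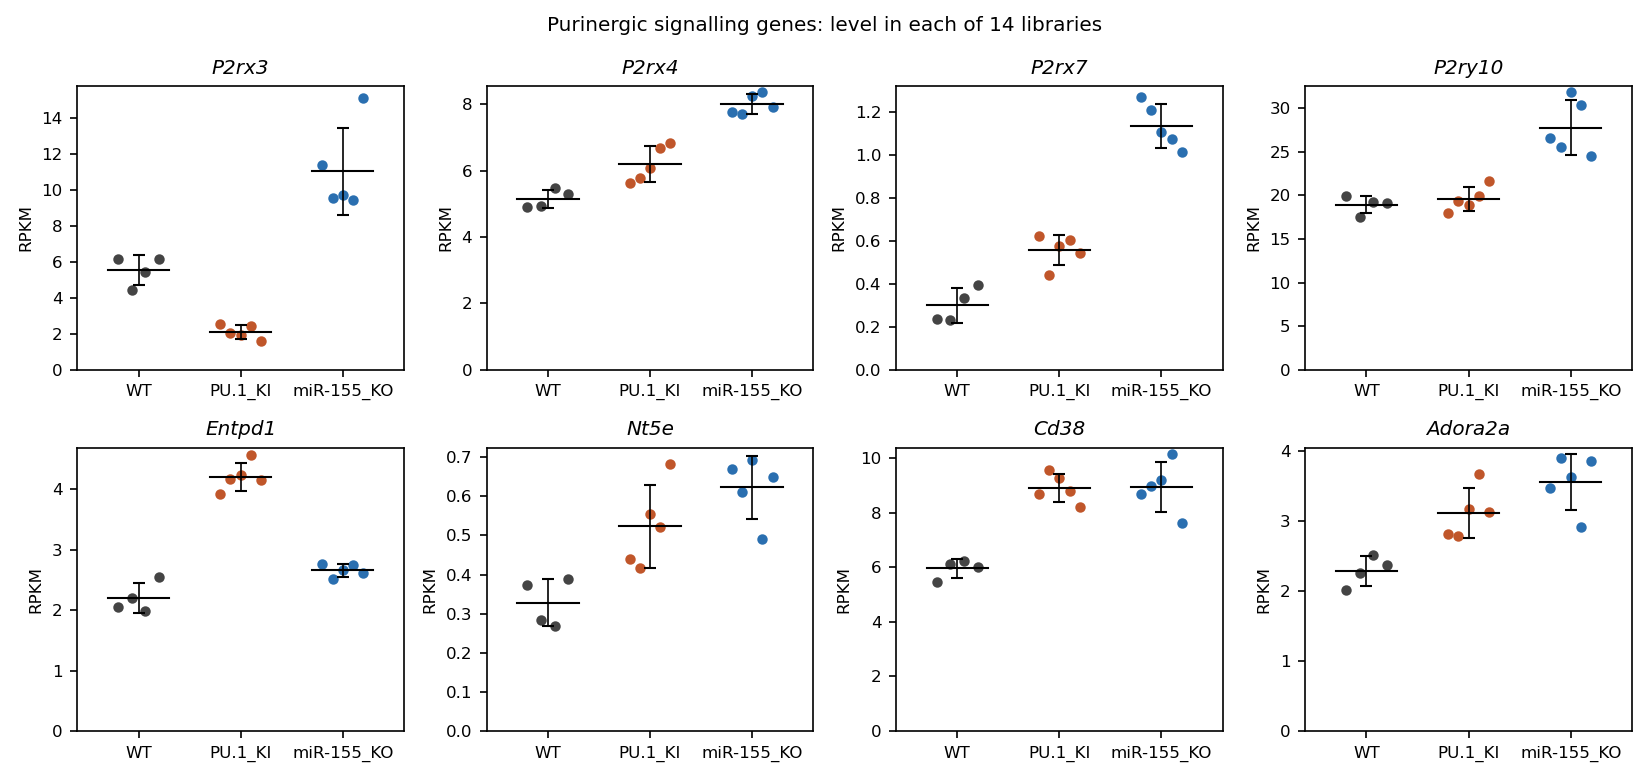
Level of each of the 8 purinergic genes in RPKM (vertical axes, each from 0) in the 14 libraries, by genotype. Points are libraries, horizontal bars the group mean and whiskers the SD. P2rx3 is the gene whose PU.1_KI libraries (1.59 to 2.51) lie below WT (4.41 to 6.18) while its miR-155_KO libraries (9.43 to 15.1) lie above.

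The position of P2rx3 bears on how its reads can be assigned. Its span in the table overlaps that of Ssrp1, a histone chaperone gene on the opposite strand, by 265 bp or 0.682% of the P2rx3 span. In GENCODE M21 12 of the 1985 exon bases of P2rx3 are shared with Ssrp1. No source used here states whether reads were counted by strand. Ssrp1 stood far higher, at 91.6 ± 5.84 RPKM in WT, 87.2 ± 6.71 in PU.1_KI and 76.0 ± 7.11 in miR-155_KO. It did not pass in PU.1_KI (log2 fold change -0.07 ± 0.07, limma adjusted p = 0.5) and fell in miR-155_KO (-0.27 ± 0.07, limma adjusted p = 0.00302), where P2rx3 stood higher.

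The nearest gene rows on either side of P2rx3 were Prg3, an eosinophil granule protein gene 4696 bp away, and Tnks1bp1, 12997 bp away. Prg3 passed the filter through miR-155_KO, where it was high, with 0 WT libraries and 1 PU.1_KI library at 1 RPKM. Its level was 0.572 ± 0.191 RPKM in WT, 0.954 ± 0.113 in PU.1_KI (log2 fold change 0.45 ± 0.15, limma adjusted p = 0.0478 in the fit without a filter on low values) and 1.86 ± 0.51 in miR-155_KO (1.14 ± 0.15, limma adjusted p = 2.54e-05 in that fit). Tnks1bp1 rose in miR-155_KO from 4.45 ± 0.46 to 7.0 ± 0.57 RPKM (0.60 ± 0.08, limma adjusted p = 1.69e-06) and did not pass in PU.1_KI (4.16 ± 0.43 RPKM, limma adjusted p = 0.436). Of 14 tested genes within 1 Mb of P2rx3, Prg3 among them, 3 rose and 1 fell in PU.1_KI, where over all 9607 tested genes 27.7% passed (23.7% higher and 4.02% lower). In miR-155_KO 3 of the 14 rose and 5 fell, with 62.5% of all tested genes passing. The faller in PU.1_KI was Prg2, another eosinophil granule gene (log2 fold change -0.54). The Sfpi1 locus lies 6.04 Mb from P2rx3 on the same chromosome. Markers of mast cells and basophils other than Prg2 and Prg3 did not pass the filter, and Mcpt8, Mcpt4, Fcer1a and Ms4a2 were at 0 in every library.

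**Figure D2:**
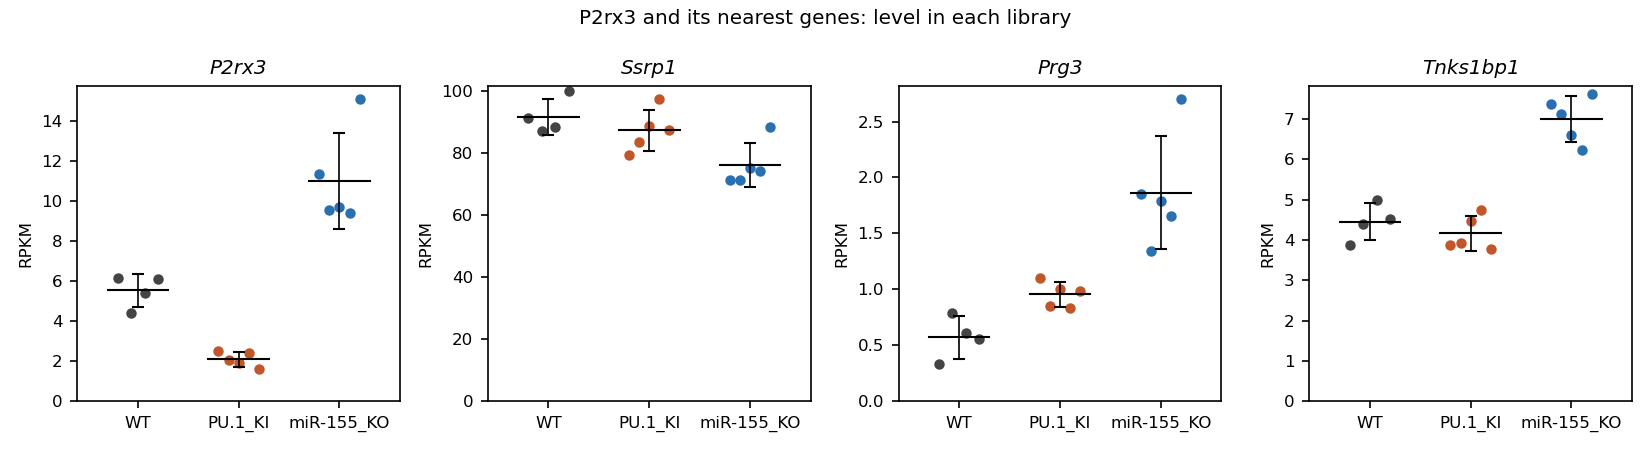
Level in RPKM (vertical axes, each from 0) of P2rx3, of Ssrp1, which overlaps it, and of its nearest neighbours Prg3 and Tnks1bp1 in the 14 libraries by genotype, with group means (bars) and SD (whiskers). P2rx3 is the gene of these 4 whose PU.1_KI libraries all lie below all WT libraries.

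The tested genes with a pattern most like that of P2rx3, by the distance between mean log2 levels of the 3 genotypes after centring each gene, were 8430427H17Rik (now Nol4l), Tnfsf4, Nov, 2810407C02Rik (now Selenot) and Cst7, over 14 libraries. In each of them PU.1_KI lay below WT and miR-155_KO above WT with no overlap. They were picked for closeness to P2rx3, so a shared order of means largely follows from the choice. 8430427H17Rik, Tnfsf4 and Nov averaged under 1 RPKM in WT and PU.1_KI and passed the filter through miR-155_KO, where they were high. The closest, 8430427H17Rik, stood at 0.518 ± 0.051 RPKM in WT, 0.106 ± 0.012 in PU.1_KI and 1.23 ± 0.12 in miR-155_KO. Cst7, the protease inhibitor cystatin F, stood at 17.2 ± 0.51, 14.8 ± 1.23 and 51.2 ± 3.52 RPKM. Tnfsf4, the ligand of the costimulatory receptor OX40, stood at 0.471 ± 0.057, 0.315 ± 0.037 and 1.75 ± 0.46 RPKM. The distance of P2rx3 to 8430427H17Rik was 0.46 on the log2 scale, and to the other four between 0.71 and 0.72.

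P2rx4 and P2rx7, the P2X channels of immune cells, shared another order. Both were lowest in WT, intermediate in PU.1_KI and highest in miR-155_KO with no overlap at either step, an order found in 406 of the 9607 tested genes, or 4.23%. The genes are close neighbours on the plus strand of chromosome 5 of NCBIM37, with 16151 bp between them. P2rx7 occupies chr5:123093920-123141441 and P2rx4 chr5:123157593-123179747. The summed dendritic cell markers had ranges in the same order, 41.7 to 53.7 RPKM in WT, 67.9 to 84.4 in PU.1_KI and 82.1 to 103.8 in miR-155_KO, though the mutants overlapped. Of the 8 listed markers, Itgax, Xcr1, Siglech and Clec9a were below 0.1 RPKM in every library. The other 4 passed the filter, and Ccr7 (means of 17.8, 32.5 and 58.2 RPKM) and Zbtb46 (2.34, 2.67 and 4.62) had that order of means. Flt3 was highest in PU.1_KI (15.8, 26.0 and 22.9 RPKM) and Batf3 lowest in miR-155_KO (12.4, 15.1 and 8.72), and the part of this list in the levels of P2rx4, P2rx7 and Adora2a was not tested.

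P2rx4 (ENSMUSG00000029470) encodes a channel found on the surface and in lysosomes. Its WT libraries held 4.90, 4.92, 5.47 and 5.29 RPKM, its PU.1_KI libraries 5.63, 5.76, 6.09, 6.67 and 6.84, and its miR-155_KO libraries 7.75, 7.71, 8.24, 8.37 and 7.92. WT and PU.1_KI came within 0.16 RPKM of each other, between WT replicate 3 and PU.1_KI replicate 1. Means were 5.15 ± 0.28, 6.20 ± 0.54 and 8.0 ± 0.30 RPKM, so that miR-155_KO exceeded WT 1.56-fold (log2 difference 0.59 ± 0.04) and PU.1_KI exceeded WT 1.21-fold (0.24 ± 0.06). Camkk2, a calcium-dependent kinase gene next to P2rx4, fell in miR-155_KO (log2 fold change -0.26 ± 0.10, limma adjusted p = 0.0299).

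P2rx7 (ENSMUSG00000029468) encodes the channel that needs high ATP and that can trigger the inflammasome in macrophages. Its WT libraries held 0.234, 0.233, 0.333 and 0.396 RPKM, its PU.1_KI libraries 0.622, 0.443, 0.578, 0.602 and 0.544, and its miR-155_KO libraries 1.27, 1.21, 1.11, 1.08 and 1.01. It passed the expression filter through miR-155_KO only, since no WT or PU.1_KI library reached 1 RPKM. With 5524 exon bases in GENCODE M21 these levels stand for roughly 52 to 368 reads a library. Mean levels were 0.299 ± 0.080, 0.558 ± 0.071 and 1.14 ± 0.10 RPKM, and miR-155_KO exceeded WT by 3.80-fold and PU.1_KI by 2.04-fold. The log2 difference of PU.1_KI from WT was 0.41 ± 0.08, but with quantile normalization it was 0.20 and the groups overlapped. With a pseudocount of 0.1 it was 0.74.

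The other P2X genes were low. P2rx1 stood at 0.237 ± 0.031, 0.238 ± 0.018 and 0.337 ± 0.056 RPKM in WT, PU.1_KI and miR-155_KO, and P2rx5 at 0.0689 ± 0.0202, 0.201 ± 0.057 and 0.28 ± 0.067. P2rx2 was at or below 0.02 RPKM on average in each genotype, and P2rx6 was at 0 in all WT and PU.1_KI libraries. Of the 7 P2X genes, P2rx3 therefore had the highest mean RPKM in WT and in miR-155_KO, and P2rx4 in PU.1_KI. The ranges of P2rx3 and P2rx4 overlapped in WT.

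P2ry10 (ENSMUSG00000050921) carries the name of a P2Y receptor but is known as a receptor for lysophosphatidylserine on lymphocytes. It lies on chrX:104283831-104300313 on the plus strand of NCBIM37 and was the most abundant of the 8 genes in each genotype. The WT libraries held 19.9, 17.6, 19.2 and 19.1 RPKM, the PU.1_KI libraries 18.0, 19.4, 18.9, 19.95 and 21.6, and the miR-155_KO libraries 26.6, 25.6, 31.9, 30.4 and 24.6. WT and PU.1_KI overlapped, with a log2 difference of 0.04 ± 0.06 that was -0.04 with median-of-ratios scaling. All miR-155_KO libraries lay above both other groups (27.8 ± 3.16 RPKM against 19.0 ± 0.99 in WT, log2 difference 0.54 ± 0.08).

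A630033H20Rik, now P2ry10b, is the related gene 43952 bp from P2ry10, and reads of such copies can be hard to assign. It rose in both mutants, from 1.07 ± 0.13 RPKM in WT to 2.02 ± 0.21 in PU.1_KI (log2 fold change 0.68 ± 0.08, limma adjusted p = 2.42e-06) and 2.28 ± 0.24 in miR-155_KO (0.82 ± 0.08, limma adjusted p = 3.42e-08). Lpar2, a receptor for lysophosphatidic acid, rose in miR-155_KO from 1.08 ± 0.06 to 1.88 ± 0.10 RPKM (0.59 ± 0.06, limma adjusted p = 2.02e-07) and did not pass in PU.1_KI (0.996 ± 0.106 RPKM, limma adjusted p = 0.408, or -0.18 with 0.0256 after quantile normalization). Of the 4 tested receptors of lysophosphatidylserine and lysophosphatidic acid beside P2ry10, 1 rose and 0 fell in PU.1_KI, where 27.7% of all tested genes passed. In miR-155_KO 3 rose and 0 fell, where 27.2% of all tested genes rose and 35.3% fell.

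Entpd1 (ENSMUSG00000048120), the gene of the ATP-degrading enzyme CD39, was highest in PU.1_KI. It lies on chr19:40686887-40816092 on the plus strand of NCBIM37. Its level in WT was 2.05, 2.20, 1.98 and 2.54 RPKM, the PU.1_KI libraries 3.92, 4.16, 4.24, 4.56 and 4.15, and the miR-155_KO libraries 2.75, 2.51, 2.66, 2.74 and 2.61. Every PU.1_KI library lay above every library of the other genotypes, while WT replicate 4 overlapped miR-155_KO. Means were 2.19 ± 0.25, 4.21 ± 0.23 and 2.65 ± 0.10 RPKM. PU.1_KI exceeded WT by 1.92-fold (log2 difference 0.81 ± 0.07) and miR-155_KO by 1.59-fold. Entpd1 was the only one of the 8 genes with all PU.1_KI libraries above all miR-155_KO libraries. Of the macrophage markers Cd68 (means of 6.80, 10.9 and 5.08 RPKM in WT, PU.1_KI and miR-155_KO) and Mpeg1 (5.79, 7.95 and 3.74) were also highest in PU.1_KI. The others were not all so, since Emr1 was highest in miR-155_KO (0.2, 0.253 and 0.738 RPKM) and Csf1r in WT, at or below 0.166 RPKM in every library. The part of these markers in the level of Entpd1 was not tested.

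Nt5e (ENSMUSG00000032420), the gene of the AMP-degrading enzyme CD73, lies on chr9:88222447-88266927 on the plus strand of NCBIM37 and did not pass the expression filter. The WT libraries held 0.373, 0.283, 0.269 and 0.388 RPKM, the PU.1_KI libraries 0.441, 0.417, 0.556, 0.521 and 0.683, and the miR-155_KO libraries 0.671, 0.610, 0.694, 0.491 and 0.649. Both mutants lay above WT without overlap, PU.1_KI by as little as 0.029 RPKM between WT replicate 4 and PU.1_KI replicate 2, and the mutants overlapped each other. These levels stand for roughly 38 to 141 reads a library, with 3995 exon bases in GENCODE M21.

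Cd38 (ENSMUSG00000029084) encodes an ectoenzyme that consumes NAD and is also a surface marker of B cells and plasma cells. It lies on chr5:44260048-44303614 on the plus strand of NCBIM37. Its WT libraries held 5.44, 6.13, 6.23 and 6.02 RPKM, its PU.1_KI libraries 8.68, 9.55, 9.27, 8.80 and 8.20, and its miR-155_KO libraries 8.69, 8.97, 9.20, 10.1 and 7.61. Both mutants lay above WT without overlap and overlapped each other. Mean levels were 8.90 ± 0.53 RPKM in PU.1_KI and 8.92 ± 0.92 in miR-155_KO against 5.96 ± 0.35 in WT (1.49-fold and 1.498-fold). Their difference on the log2 scale had an SE of 0.07, and was 0.10 with median-of-ratios scaling. Plasmablast markers were mixed in PU.1_KI, where 3 of the 7 past the filter rose (Irf4, Slamf7 and Cd93) and 2 fell (Igj and Xbp1) by limma. Over all tested genes 23.7% rose and 4.02% fell there. In miR-155_KO 2 of the 7 rose and 3 fell, where 27.2% and 35.3% of all tested genes did. The sum of the plasmablast markers, led by the J chain gene Igj, was 468 to 552 RPKM in WT, 289 to 407 in PU.1_KI and 327 to 468 in miR-155_KO. The part of these markers in the level of Cd38 was not tested. Bst1, the neighbouring gene of the same enzyme family, was below the filter at 0.0977 ± 0.0289, 0.239 ± 0.075 and 0.0890 ± 0.0392 RPKM. Its PU.1_KI libraries (0.151 to 0.340) lay above those of WT (0.0755 to 0.137), while miR-155_KO (0.0525 to 0.154) overlapped WT.

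Adora2a (ENSMUSG00000020178), the gene of the main adenosine receptor of lymphocytes, lies on chr10:74779688-74797533 on the plus strand of NCBIM37. Its WT libraries held 2.01, 2.27, 2.52 and 2.38 RPKM, its PU.1_KI libraries 2.82, 2.78, 3.17, 3.67 and 3.14, and its miR-155_KO libraries 3.48, 3.91, 3.63, 2.91 and 3.86. Both mutants lay above WT without overlap and overlapped each other, with means of 2.29 ± 0.22, 3.12 ± 0.36 and 3.56 ± 0.40 RPKM. PU.1_KI exceeded WT 1.36-fold and miR-155_KO exceeded WT 1.55-fold. It was the only adenosine receptor above the filter. Adora1 and Adora2b were at or below 0.0108 RPKM on average in each genotype, and Adora3 stood at 0.0372 ± 0.0131, 0.0420 ± 0.0068 and 0.284 ± 0.034 RPKM.

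Counted over all 8 genes, PU.1_KI lay above WT without overlap in 6, below it in 1 (P2rx3), and overlapped in 1 (P2ry10). Over the 9607 tested genes 18.4% lay above and 3.75% below, 22.1% in all. In miR-155_KO 7 of the 8 lay above WT and 1 overlapped (Entpd1), against 23.5% above and 24.9% below over all tested genes, 48.4% in all. Between the mutants miR-155_KO lay above PU.1_KI in 4 (P2rx3, P2rx4, P2rx7 and P2ry10), below in 1 (Entpd1) and overlapped in 3, against 13.4% above and 29.8% below, 43.2% in all. The genes were chosen with these contrasts known, so nothing is read from these counts. The median log2 difference over the 8 genes was 0.34 in PU.1_KI and 0.54 in miR-155_KO, where all tested genes had medians of 0.07 and -0.05.

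**Figure D3:**
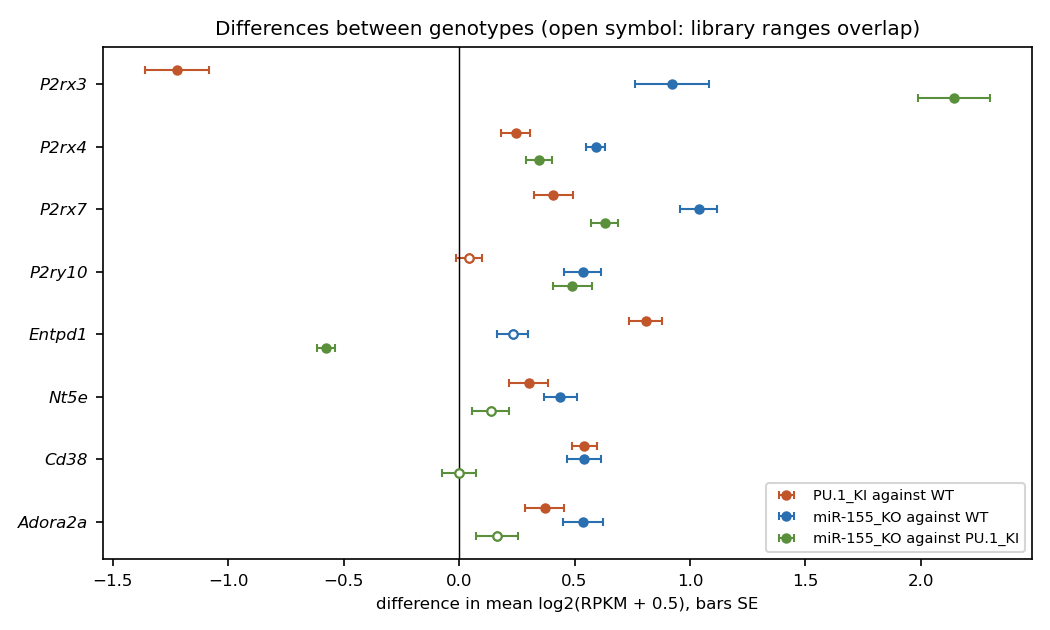
Differences in mean log2(RPKM + 0.5) between genotypes (horizontal axis, bars SE) for the 8 purinergic genes. Open symbols mark comparisons in which the library ranges overlap. P2rx3 is the only gene below 0 in PU.1_KI against WT and Entpd1 the only one with separate groups below 0 in miR-155_KO against PU.1_KI.

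The order of the levels by mean RPKM differed between genotypes. In WT it ran P2ry10, Cd38, P2rx3, P2rx4, Adora2a, Entpd1, Nt5e and P2rx7, with overlapping ranges between Cd38 and P2rx3, P2rx3 and P2rx4, Adora2a and Entpd1, and Nt5e and P2rx7. In PU.1_KI P2rx3 stood at rank 6, below Adora2a and above P2rx7, with no overlap with either. In miR-155_KO it stood at rank 2, above Cd38, whose range it overlapped.

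Promoter windows from RefSeq (250 bases before to 50 after a start site, GRCm38.p6) were found for 6 of the 8 genes, 9 windows in all. None was available for P2rx3 or Adora2a, so the promoters of these genes were not searched. They were searched on both strands for GGAAGT, a core bound by ETS factors such as PU.1, a motif chosen after the windows had been seen. The longer forms AGGAAGT and GAGGAAGT contain it. GGAAGT was found in 4 windows of 3 genes, P2rx7, P2ry10 and Cd38, and in 23.8% of all 32851 windows of that length. The windows of P2rx4, Entpd1 and Nt5e, which also lay above WT in PU.1_KI, held no match. GAGGAAGT was found in 1 window each of P2rx7 and P2ry10, and in 3.2% of all windows. A matched window of each of P2rx7, P2ry10 and Cd38 is shown because in PU.1_KI these genes differ, P2ry10 overlapping WT and the others lying above it. For P2rx7 the window shown is the one with GAGGAAGT. A window of Entpd1, which lay 1.92-fold above WT in PU.1_KI and has no match in either of its windows, is shown beside them. Its other window, chr19:40659520-40659819, is not shown and holds GAGGAAGG, which differs from GAGGAAGT in the last letter. The lack of a match in Entpd1 is thus one of the exact letters only. Capitals mark GGAAGT or its reverse complement ACTTCC, and each window is on the plus strand.
P2rx7, chr5:122650133-122650432: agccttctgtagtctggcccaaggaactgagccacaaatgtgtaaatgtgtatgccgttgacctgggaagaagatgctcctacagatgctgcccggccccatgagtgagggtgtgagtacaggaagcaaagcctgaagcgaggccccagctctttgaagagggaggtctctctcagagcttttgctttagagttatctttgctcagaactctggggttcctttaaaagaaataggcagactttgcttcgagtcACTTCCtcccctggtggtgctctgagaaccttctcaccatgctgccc
P2ry10, chrX:107089083-107089382: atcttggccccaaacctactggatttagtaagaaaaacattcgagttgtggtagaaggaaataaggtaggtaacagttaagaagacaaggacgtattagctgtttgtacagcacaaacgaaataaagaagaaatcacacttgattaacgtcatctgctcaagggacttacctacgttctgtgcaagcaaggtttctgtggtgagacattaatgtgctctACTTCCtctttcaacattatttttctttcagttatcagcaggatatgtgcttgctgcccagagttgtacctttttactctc
Cd38, chr5:43868559-43868858: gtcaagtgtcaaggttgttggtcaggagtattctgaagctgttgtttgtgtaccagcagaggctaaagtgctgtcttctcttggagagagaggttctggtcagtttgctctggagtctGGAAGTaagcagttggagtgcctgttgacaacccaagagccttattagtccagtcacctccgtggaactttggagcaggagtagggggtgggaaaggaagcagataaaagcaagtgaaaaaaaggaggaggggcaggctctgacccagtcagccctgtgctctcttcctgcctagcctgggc
Entpd1, chr19:40612116-40612415: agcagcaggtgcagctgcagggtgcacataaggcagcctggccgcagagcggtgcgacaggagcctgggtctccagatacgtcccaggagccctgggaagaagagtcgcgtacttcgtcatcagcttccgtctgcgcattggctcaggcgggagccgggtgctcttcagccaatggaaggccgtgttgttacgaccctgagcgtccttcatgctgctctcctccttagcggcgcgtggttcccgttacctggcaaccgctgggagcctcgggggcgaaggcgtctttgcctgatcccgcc
The match begins at 4 in P2rx7, -31 in P2ry10 and -132 in Cd38 from the start site. The other matched window of P2rx7, chr5:122643677-122643976, is not shown and holds GGAAGT from 19. A match describes letters and not binding, and genes with a match included one whose PU.1_KI libraries overlapped WT.

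The wider pathway was read from 109 other symbols in 10 lists, of which 104 were in the table and 51 passed the filter. These genes were tested with limma over all 9607 genes, with Benjamini-Hochberg adjusted p under 0.05. The 51 include P2ry12, which passed the filter only through PU.1_KI, and Pde4a, which passed only through miR-155_KO. In PU.1_KI 17 rose and 1 fell, so 35.3% passed where 27.7% of all tested genes did. Their median log2 fold change was 0.10, near the 0.07 of all genes. The excess over all genes was not kept by the alternatives. After median-of-ratios scaling 13 were higher and 4 lower, 33.3% against 33.0% of all genes, and after quantile normalization 11 and 4, 29.4% against 32.0%. Without WT replicate 1 the count was 10 and 1, 21.6% against 20.4%, with Dpp4, Pde7a, Txnip, Dck, Pde3b, Casp4 and Gsdmd no longer passing. In miR-155_KO 15 rose and 20 fell, so 68.6% passed where 62.5% of all tested genes did (27.2% higher and 35.3% lower). This excess also shrank, to 70.6% against 68.8% after median-of-ratios scaling and 70.6% against 68.1% after quantile normalization. With a filter of 5 RPKM it was gone, at 63.2% against 63.4%.

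Genes of ATP release and nucleoside uptake were among those that rose, though other release genes fell in miR-155_KO. Slc17a9, the vesicular transporter that loads ATP for release, rose from 8.51 ± 0.80 RPKM in WT to 12.8 ± 0.74 in PU.1_KI (log2 fold change 0.56 ± 0.07, limma adjusted p = 1.1e-05) and 13.6 ± 1.2 in miR-155_KO (0.64 ± 0.07, limma adjusted p = 3.91e-07). Slc28a2, a concentrative nucleoside transporter, rose in PU.1_KI from 6.07 ± 0.44 to 8.55 ± 0.45 RPKM (0.46 ± 0.06, limma adjusted p = 1.73e-05), and Slc29a3, a lysosomal nucleoside transporter, from 6.25 ± 0.38 to 8.40 ± 0.77 (0.40 ± 0.06, limma adjusted p = 9.01e-05). Of 4 tested release genes, against the same shares of all genes as above, 1 rose and 0 fell in PU.1_KI, and 2 rose and 2 fell in miR-155_KO. The fallers, named outside the naming rule, were Panx1 (log2 fold change -0.28, limma adjusted p = 0.000946) and Calhm2 (-0.19, limma adjusted p = 0.0365). The call of Calhm2 was lost in 5 of 22 alternative fits. Of 3 tested transporters 2 rose and 0 fell in each mutant, beside 27.7% of all genes passing in PU.1_KI and 62.5% in miR-155_KO. The rise of Slc28a2 in miR-155_KO was marginal (log2 fold change 0.15, limma adjusted p = 0.0495) and was lost in 14 of 23 alternative fits, with limma adjusted p from 0.0206 to 0.168.

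In the list of other nucleotide-degrading and NAD-consuming enzymes, the tested genes held no call in PU.1_KI. These were Entpd4, Entpd5, Entpd6, Entpd7, Enpp1 and Alpl. Bst1 and Art2b, listed for their use of NAD, were below the filter and were not tested. Of 6 tested, 0 rose and 0 fell in PU.1_KI by limma, where 27.7% of all tested genes passed. The count at an unadjusted p under 0.05 was also 0. Entpd2, a relative of Entpd1 below the filter and named after its values were seen, stood at 0.117 to 0.219 RPKM in WT and 0.284 to 0.549 in PU.1_KI, with no overlap. In miR-155_KO 1 rose and 4 fell, and against PU.1_KI Entpd4, an intracellular relative of Entpd1, fell from 4.26 ± 0.43 to 2.71 ± 0.33 RPKM (-0.57 ± 0.07, limma adjusted p = 1.32e-06).

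Among P2Y receptors for nucleotides only P2ry12, an ADP receptor known from platelets and microglia, passed the filter. It passed only through PU.1_KI, where it was high, since no WT or miR-155_KO library reached 1 RPKM, so its values are taken from the fit without a filter on low values. It rose in PU.1_KI from 0.824 ± 0.172 to 1.30 ± 0.23 RPKM (log2 fold change 0.45 ± 0.10, limma adjusted p = 0.00886 in that fit). In miR-155_KO it fell to 0.564 ± 0.085 (-0.31 ± 0.10, limma adjusted p = 0.0253 in that fit). The means of the mutants thus stood on opposite sides of WT, in the reverse of the order of P2rx3. Unlike for P2rx3, the libraries of miR-155_KO (0.457 to 0.689 RPKM) overlapped those of WT (0.624 to 0.981). P2ry13, another ADP receptor, was below the filter at 0.250 ± 0.012, 0.825 ± 0.140 and 0.428 ± 0.095 RPKM. P2ry1, P2ry4 and P2ry6 were at or below 0.0168 RPKM on average in each genotype, P2ry2 stood at 0.119, 0.181 and 0.204 RPKM and P2ry14 at 0.0597, 0.105 and 0.0367. The macrophage markers Cd68 and Mpeg1, given above, were likewise highest in PU.1_KI and lowest in miR-155_KO, and their part in P2ry12 was not tested.

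The list of nucleoside and nucleotide enzymes, not all of them particular to purines, mostly fell in miR-155_KO. Of 14 tested, 3 rose and 0 fell in PU.1_KI, or 1 and 0 without WT replicate 1, where 27.7% of all tested genes passed, while 1 rose and 9 fell in miR-155_KO, where 35.3% of all tested genes fell. Hprt, which salvages hypoxanthine and guanine, fell in miR-155_KO from 63.7 ± 3.9 to 43.2 ± 3.1 RPKM (log2 fold change -0.56 ± 0.06, limma adjusted p = 4.67e-07). Pnp, which splits inosine and guanosine and has the close copy Pnp2, fell from 11.99 ± 0.64 to 7.97 ± 0.83 RPKM (-0.56 ± 0.07, limma adjusted p = 6.76e-07). Dck, the deoxycytidine kinase, fell from 12.2 ± 0.76 to 8.24 ± 0.62 RPKM and Nt5c, a cytosolic nucleotidase, from 22.9 ± 1.4 to 14.95 ± 1.7. Nt5c3 and Nt5c3l, related nucleotidases, were lower in miR-155_KO than in PU.1_KI (12.3 ± 0.72 against 18.5 ± 1.3 RPKM, and 8.66 ± 0.64 against 12.3 ± 1.0). Dpp4, the surface protease CD26 that binds adenosine deaminase, was the one that rose in miR-155_KO, from 7.45 ± 0.24 to 10.9 ± 1.3 RPKM (0.52 ± 0.07, limma adjusted p = 3.08e-06).

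Inflammasome genes linked to P2X7 rose in part. Casp1, the protease that matures IL-1β, rose from 9.58 ± 0.89 RPKM in WT to 13.6 ± 1.4 in PU.1_KI (log2 fold change 0.48 ± 0.08, limma adjusted p = 0.000282) and 16.0 ± 1.7 in miR-155_KO (0.71 ± 0.08, limma adjusted p = 6.38e-07). Pycard, the adaptor that links sensors to caspase-1, rose in PU.1_KI from 15.7 ± 1.5 to 19.2 ± 1.4 RPKM (0.28 ± 0.07, limma adjusted p = 0.00649). Of 6 tested genes of this list 5 rose and 0 fell in PU.1_KI, where 23.7% of all tested genes rose. Without WT replicate 1 the risers were 2, and with either scaling 4 were higher and 1 lower. In miR-155_KO 2 rose and 1 fell, where 62.5% of all tested genes passed. The one that fell was Txnip, a thioredoxin inhibitor, which rose in PU.1_KI from 67.6 ± 8.3 to 85.5 ± 9.9 RPKM and fell to 38.1 ± 3.6 in miR-155_KO. Its rise was lost without WT replicate 1 (limma adjusted p = 0.0571). The rise of Gsdmd, the pore-forming gasdermin D, in PU.1_KI (0.22 ± 0.07, limma adjusted p = 0.0181) was lost without WT replicate 1 (limma adjusted p = 0.0888) and without PU.1_KI replicate 4 (0.0508). Outside the naming rule, Nlrp3, Il1a and Il1b, named after their values were seen, were at or below 0.0335 RPKM on average in each genotype.

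Downstream of adenosine receptors, 4 of 13 tested genes of cyclic AMP signalling rose and 1 fell in PU.1_KI, 38.5% against 27.7% of all tested genes. In miR-155_KO 4 rose and 3 fell, 53.8% against 62.5%. The risers of both mutants include Pde4a, whose passing of the filter is described below. The counts in PU.1_KI became 2 and 2 after median-of-ratios scaling, 1 and 1 after quantile normalization, and 2 and 1 without WT replicate 1. The gene that fell there, Adcy3, lost its call in 6 of 22 alternative fits, among them those without WT replicate 2, 3 or 4 or PU.1_KI replicate 1 or 5 (highest limma adjusted p = 0.0783). Pde4a, a phosphodiesterase that degrades cyclic AMP, passed the filter only through miR-155_KO, where it was high, and its values are from the fit without a filter on low values. It rose from 0.574 ± 0.068 RPKM in WT to 0.826 ± 0.056 in PU.1_KI (log2 fold change 0.31 ± 0.06, limma adjusted p = 0.00349 in that fit) and 1.15 ± 0.12 in miR-155_KO (0.62 ± 0.06, limma adjusted p = 2.21e-06 in that fit). With quantile normalization of the filtered genes its call in PU.1_KI was lost (limma adjusted p = 0.197). Adcy7, an adenylyl cyclase of blood cells, rose in PU.1_KI from 10.1 ± 0.58 to 12.9 ± 0.53 RPKM (0.34 ± 0.05, limma adjusted p = 0.000132) and fell in miR-155_KO to 8.24 ± 0.38 (-0.28 ± 0.05, limma adjusted p = 0.000202). Adcy3, another adenylyl cyclase, fell in miR-155_KO from 2.91 ± 0.28 to 1.67 ± 0.26 RPKM (-0.66 ± 0.08, limma adjusted p = 1.09e-06). Gnas, the stimulatory G protein subunit used by the product of Adora2a, was higher in miR-155_KO than in PU.1_KI (41.7 ± 1.9 against 32.5 ± 2.3 RPKM, limma adjusted p = 2.73e-05).

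Between the mutants, 8 of the 51 tested pathway genes were higher in miR-155_KO and 27 lower, where 17.9% and 46.4% of all tested genes were, 64.3% in all. The median of all genes in this comparison was -0.13, and with quantile normalization -0.02. After median-of-ratios scaling the counts became 14 and 22, and with quantile normalization 15 and 20. The greatest difference was in Txnip, at -1.15 ± 0.09 on the log2 scale (limma adjusted p = 2.16e-09).

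**Figure D4:**
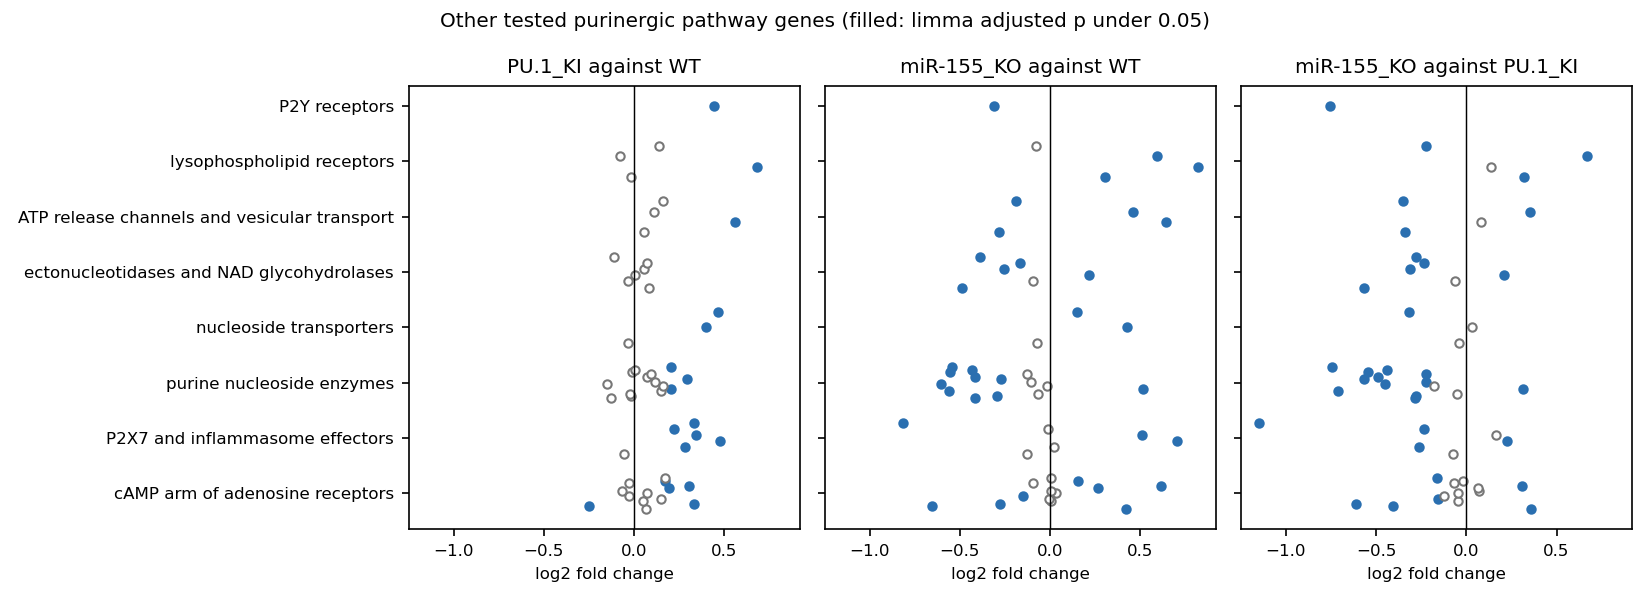
Log2 fold change (horizontal axes) of the 51 tested pathway genes other than the 8 described one by one, by list (rows) and comparison (panels). Filled symbols passed limma with adjusted p under 0.05: 18 in PU.1_KI against WT, and 35 in each of the other panels.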

How the data were processed

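The genes followed here and the pathway and marker lists were chosen with earlier results of these data known. The authors deposited 1 table of RPKM values with a column per library. Per the submitters' processing notes, Trim Galore, TopHat and build NCBIM37 were used; no source used here gives the counter, annotation or strand setting. Of 22295 rows, 63 that repeat a gene were dropped. Depth was recovered from the 250 lowest values of genes spanning under 2500 bp, of which 73.2% to 81.6% came out within 0.01 of a whole number of reads. Genes with at least 1 RPKM in at least 4 libraries (9607) were fitted with limma 3.58.1 (R 4.3.3) on log2(RPKM + 0.5), 1 mean per genotype over 14 libraries, with an intensity trend, two-sided, Benjamini-Hochberg adjusted. The fit was tested on simulated data. Other steps ran in Python 3.11.15 (numpy 2.4.6; pandas 2.3.3); figures used matplotlib 3.10.9. The SE of differences of the 8 genes comes from the group SDs. Named pathway genes are up to 12 with the smallest adjusted p in each comparison, and receptors of ATP or adenosine below the filter. No source used here gives the sequencing pool or culture day, so they and genotype cannot be told apart.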

Additional observations from a re-analysis of the deposited data

Results flagged for a closer look

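Of 90 groups of 4 or 5 libraries, for the 8 genes and the named pathway genes, 8 held a library whose gap to the nearest other was large for the group's range by Dixon's criterion, where chance alone gives about 1 in 20. None of the 8 was in the genes followed one by one. In WT replicate 1, A630033H20Rik was highest at 1.27 RPKM with the other libraries at 1.01, Adcy3 lowest at 2.49 with the others from 3.02 to 3.06, Gsdmd lowest at 13.9 with the others from 16.2 to 16.4, and Nt5c3l lowest at 9.85 with the others from 12.2 to 12.5. In miR-155_KO replicate 5, Entpd4 was highest at 3.29 RPKM with the others from 2.49 to 2.6, and Slc17a9 lowest at 11.4 with the others from 13.6 to 14.4. Dck was highest in PU.1_KI replicate 4, at 15.8 RPKM with the others from 13.5 to 13.9, and Txnip lowest in PU.1_KI replicate 1, at 67.8 with the others from 88.7 to 91.6.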

How the results depend on the processing

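For the counts of genes passing, 10 kinds of alternative were run: pseudocounts of 0.1 and 1, no filter or a filter of 5 RPKM, median-of-ratios scaling, quantile normalization, no intensity trend, a fit of the compared groups only, the replicate number as a block, and each library left out. Named pathway genes had the same where they passed the filter used. Differences of the 8 genes were recomputed with both pseudocounts, both scalings, the block and each library left out (Nt5e without quantile normalization and the block), and counts of separate groups with both scalings and each library left out. Without a filter on low values 53 pathway genes passed in miR-155_KO against WT and 57 against PU.1_KI, with 100 genes tested in place of 51. With 1 library left out, pathway genes passing ranged from 11 to 20 in PU.1_KI against WT. In the alternatives run for each, no difference of the 8 genes whose groups were separate changed sign, and no named pathway gene did. Same-numbered libraries did not consistently deviate together (correlations from -0.385 to 0.467), so the numbers were not taken as pairs. Some differently numbered libraries of different genotypes did, with 0.567 for miR-155_KO replicate 4 with WT replicate 1 and with PU.1_KI replicate 5. The reason was not tested. With the replicate block 19, 37 and 36 pathway genes passed in PU.1_KI against WT, miR-155_KO against WT and miR-155_KO against PU.1_KI. Levels under 1 RPKM rest on few reads and move with the pseudocount.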

Other observations

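A few genes were picked after their values were seen, and are given as values only. Adcy6, an adenylyl cyclase, was below the filter at 0.147 ± 0.036 RPKM in WT, 0.147 ± 0.037 in PU.1_KI and 0.997 ± 0.144 in miR-155_KO. Pde4d, a phosphodiesterase of cyclic AMP, stood at 0.286 ± 0.035, 0.290 ± 0.046 and 0.767 ± 0.078 RPKM. Cd8a, a T cell and dendritic cell marker, lay between 0.014 and 0.047 RPKM in WT, 0.017 and 0.1 in PU.1_KI and 0.573 and 0.719 in miR-155_KO, while Cd8b1 lay at or below 0.185 RPKM in every library and Cd3d at or below 0.08.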
